A study of Mus musculus with 2 samples.

Results

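Messenger RNA levels of 10 genes that make, store and remove serotonin were compared between chromogranin A reporter cells and the other epithelial cells of mouse intestinal organoids. The genes were *Tph1*, *Ddc*, *Gch1*, *Pts*, *Spr*, *Qdpr*, *Slc18a1*, *Slc18a2*, *Slc6a4* and *Maoa*, chosen for their known roles. Each of the 10 symbols occupied 1 row in both tables, with an estimate of status OK in each, among 23532 gene symbols estimated in both libraries. The organoids were gel-embedded cultures of gut epithelium, grown from small-intestinal crypts of ChgA-GFP mice, in which green fluorescent protein (GFP) reports chromogranin A. Both fractions thus share the strain and the culture, in a medium with epidermal growth factor, noggin and R-spondin, and are set apart by the sort: GFP+ cells were about 1% of the epithelial cells, and GFP- cells were the remainder. There was 1 library of polyadenylated RNA per fraction, so the fractions are described by the size of their differences and nothing was tested; the age and number of the mice are not stated in the labels.

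Serotonin is made from tryptophan in 2 steps. Tryptophan hydroxylase, encoded by *Tph1* outside the brain, adds a hydroxyl group and sets the rate, and the aromatic amino acid decarboxylase *Ddc* completes the synthesis. The hydroxylase consumes the cofactor tetrahydrobiopterin, which is built from GTP by *Gch1*, *Pts* and *Spr* in that order and returned to its active form by *Qdpr*. Vesicular monoamine transporters (*Slc18a1*, *Slc18a2*) pump serotonin into secretory granules in exchange for protons, the plasma membrane transporter *Slc6a4* takes it back up, and the mitochondrial monoamine oxidase *Maoa* degrades it. Most of the body's serotonin is made by enterochromaffin cells, the gut endocrine cells in which chromogranin A is abundant.

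Levels are given as FPKM, fragments counted over each kilobase of a transcript and adjusted for library size, so that levels of different genes within a library may be set side by side. With each FPKM come 2 confidence bounds from Cuffdiff. The lower one was 0 for all 10 genes in both libraries, so that only the upper bounds carry information. In GFP+, 5 of 23793 rows had too many fragments to be estimated, among them *Chga*, the reporter's own gene, and *Chgb*. *Chga* was at 133 FPKM in GFP-, so that fraction was not free of chromogranin A transcripts. The other listed enterochromaffin markers (*Tac1*, *Lmx1a*, *Ucn3*, *Trpa1*) were at 311 to 2200 FPKM in GFP+ and at 2.52 to 77.5 FPKM in GFP-. The low values of the deposited FPKM come in steps, from which the 10 genes were estimated to rest on about 104 to 28437 fragments in GFP- and 1602 to 370737 in GFP+. Counting error was therefore small beside the deposited upper bounds, which exceeded the FPKM by a median factor of 2.35 in each library among rows that reached 1 FPKM. In these bulk samples, fewer cells of a type and less RNA per cell cannot be told apart.

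On the scale log2((FPKM + 1) in GFP+ / (FPKM + 1) in GFP-), 5 of the 10 genes passed a 4-fold size rule as higher in GFP+ and 2 as lower. Of the 11868 symbols tested, those that reached 1 FPKM in either library, 7.09% were 4-fold higher and 4.59% were 4-fold lower. The median log2 difference was 1.72 over the 10 genes, all of which passed the 1 FPKM filter, and -0.12 over all symbols tested. The higher genes were both synthesis enzymes, the first cofactor enzyme and both vesicular transporters. The lower genes were the reuptake transporter and the oxidase. A second description used the deposited bounds: the same 5 genes had a GFP+ level above the upper bound of GFP- (19.4% of all symbols tested), and *Spr*, *Slc6a4* and *Maoa* had a GFP- level above the upper bound of GFP+ (18.9% of all symbols). For *Pts* and *Qdpr* neither held.

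**Figure D1:**
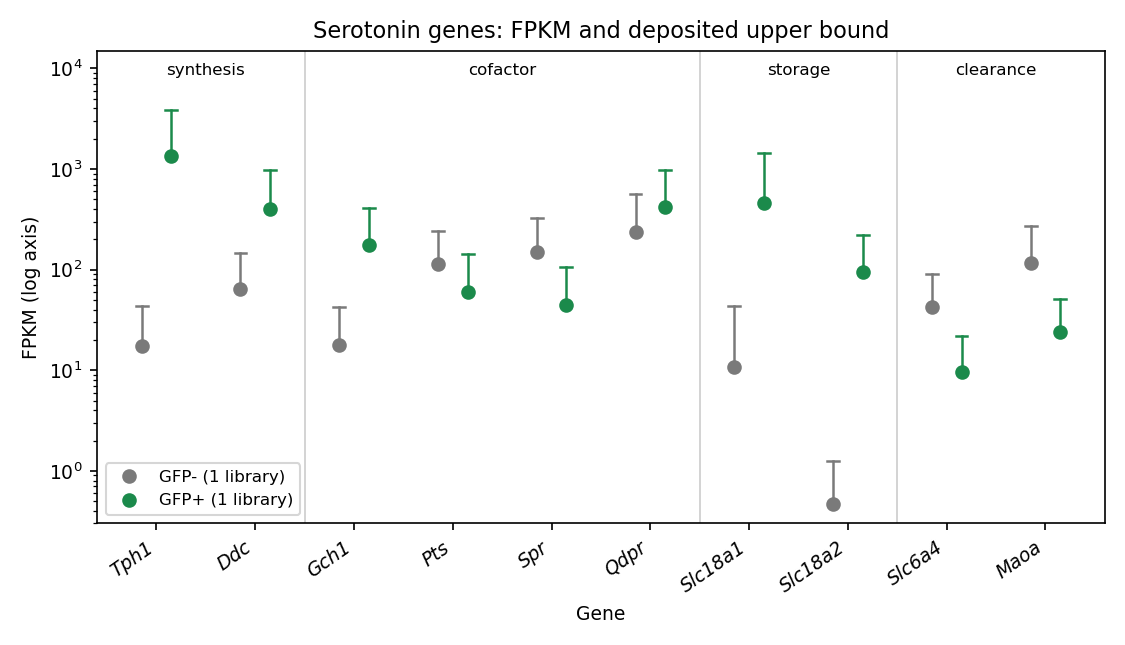
FPKM of the 10 genes (log axis) in the GFP- (grey) and GFP+ (green) library, grouped by role, with 1 library per fraction; the line above each point ends at the deposited upper bound. *Tph1*, *Ddc*, *Gch1*, *Slc18a1* and *Slc18a2* lie higher in GFP+ than the upper bound in GFP-, and *Spr*, *Slc6a4* and *Maoa* the other way round.

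The 2 enzymes of serotonin synthesis differed in how strongly they separated the fractions. *Tph1* (ENSMUSG00000040046.14, chromosome 7, 46644641 to 46672537, minus strand, GENCODE M21 on the mm10 assembly) was at 17.5 FPKM in GFP- with an upper bound of 43.3 FPKM, and at 1359 FPKM in GFP+ with an upper bound of 3903 FPKM. The GFP+ level was 77.6 times the GFP- level and 31.4 times the GFP- upper bound, and the log2 difference was 6.20. Only 0.135% of the symbols tested had a larger difference. *Ddc* (ENSMUSG00000020182.16, chromosome 11, 11814101 to 11898144, minus strand) was at 63.9 FPKM in GFP- (upper bound 146) and at 402 FPKM in GFP+ (upper bound 980), with a GFP+ level 6.29 times that in GFP- (log2 difference 2.63). The decarboxylase was thus far more abundant than the hydroxylase in the GFP- library, and the hydroxylase the more abundant in the GFP+ library. The *Tph1* to *Ddc* ratio was 0.274 in GFP- and 3.38 in GFP+, a 12.3-fold shift that no rescaling of the libraries can alter. In GFP- the *Ddc* level exceeded the *Tph1* upper bound, and in GFP+ the *Tph1* level exceeded the *Ddc* upper bound.

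Upstream sequences were taken from RefSeq (GRCm38.p6, the assembly of mm10), which had 11 start sites for 9 of the 10 genes. They are shown for the hydroxylase, which has 2 start sites, for a vesicular transporter with a high GFP+ level and for the reuptake transporter with a low one. Each is the 250 bases before the start, 5′ to 3′ on the strand of the gene, in lower case with matches to the searched motifs in capitals.
*Tph1* first start, chr7:46672538-46672787, minus strand: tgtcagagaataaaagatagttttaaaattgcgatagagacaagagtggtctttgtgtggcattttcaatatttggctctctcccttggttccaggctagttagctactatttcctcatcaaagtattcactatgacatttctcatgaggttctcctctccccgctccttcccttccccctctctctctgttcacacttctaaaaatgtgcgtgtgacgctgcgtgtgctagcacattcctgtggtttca
*Tph1* second start, chr7:46667378-46667627, minus strand: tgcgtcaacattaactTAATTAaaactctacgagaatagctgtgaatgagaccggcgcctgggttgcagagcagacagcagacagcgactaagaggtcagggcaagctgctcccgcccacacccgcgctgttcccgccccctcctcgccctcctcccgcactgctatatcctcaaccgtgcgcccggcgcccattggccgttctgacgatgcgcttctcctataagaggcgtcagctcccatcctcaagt
*Slc18a2*, chr19:59260628-59260877, plus strand: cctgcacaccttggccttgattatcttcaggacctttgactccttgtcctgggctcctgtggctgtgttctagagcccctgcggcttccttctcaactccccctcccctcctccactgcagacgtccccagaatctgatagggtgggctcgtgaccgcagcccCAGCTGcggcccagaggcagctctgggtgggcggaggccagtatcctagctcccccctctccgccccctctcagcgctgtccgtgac
*Slc6a4*, chr11:76998347-76998596, plus strand: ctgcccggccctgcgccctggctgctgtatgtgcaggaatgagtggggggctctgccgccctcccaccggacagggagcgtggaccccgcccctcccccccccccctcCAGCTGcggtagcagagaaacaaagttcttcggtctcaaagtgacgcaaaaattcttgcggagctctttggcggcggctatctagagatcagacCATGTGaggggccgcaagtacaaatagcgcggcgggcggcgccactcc
The motifs searched on both strands were CANNTG (the E-box, read by basic helix-loop-helix factors), TGACGTCA (the cyclic AMP response element), TATAAA (the TATA box) and TAATTA (a homeodomain core). No matches overlapped. The window before the first *Tph1* start held none of them and that before the second start held TAATTA, which occurs in 4.84% of 32851 RefSeq windows of this length. *Slc18a2* held 1 E-box and *Slc6a4* held 2, letters that 66.2% of all windows contain. Among the 9 genes with an entry, 4 held an E-box (*Qdpr*, *Slc18a2*, *Slc6a4*, *Maoa*) and 2 held TATAAA (*Ddc* and *Gch1*, against 12.4% of all windows). Both TATAAA matches were on the strand opposite to the gene, read as TTTATA. Their first letters were 68 bases (*Ddc*) and 188 bases (*Gch1*) before the start. None held TGACGTCA, found in 1.55% of all windows. A match describes the letters of these windows and not a bound site.

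The cofactor enzymes did not move together. *Gch1*, which starts tetrahydrobiopterin synthesis (ENSMUSG00000037580.10, chromosome 14, 47153895 to 47189413, minus strand), was at 18.0 FPKM in GFP- (upper bound 42.6) and at 177 FPKM in GFP+ (upper bound 410), with a GFP+ level 9.85 times that in GFP- (log2 difference 3.23). *Pts*, the second enzyme (ENSMUSG00000032067.6, chromosome 9, 50521617 to 50528724, minus strand), was at 113 FPKM in GFP- (upper bound 242) and at 60.1 FPKM in GFP+ (upper bound 142) (log2 difference -0.90). *Spr*, the last (ENSMUSG00000033735.9, chromosome 6, 85130176 to 85137766, minus strand), was at 151 FPKM in GFP- (upper bound 324) and at 44.8 FPKM in GFP+ (upper bound 106) (log2 difference -1.73). Of the chain, the first enzyme was thus 4-fold higher in the reporter cells, and neither *Pts* nor *Spr* passed the rule. Their differences were -0.40 and -1.24 with the median log2 ratio of all well-expressed genes set to 0, and -0.28 and -1.12 with the summed FPKM of the libraries made equal. *Qdpr*, which recycles the cofactor (ENSMUSG00000015806.12, chromosome 5, 45434021 to 45450236, minus strand), was at 239 FPKM in GFP- (upper bound 565) and at 419 FPKM in GFP+ (upper bound 968) (log2 difference 0.81). It was the most abundant of the 4 in both libraries. An antisense transcript, Gm42413, shares 332 exon bases with *Qdpr* in GENCODE M21, and without strand-aware counting the reads of the pair cannot be told apart.

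Within each library the order of the 4 enzymes changed. In GFP- the order was *Qdpr*, *Spr*, *Pts* and *Gch1*, with *Gch1* contributing 3.45% of their summed 521 FPKM. The upper bound of *Gch1* was below the level of each of the other 3 there. In GFP+ the order was *Qdpr*, *Gch1*, *Pts* and *Spr*, with *Gch1* contributing 25.3% of 701 FPKM. The ratio of *Gch1* to *Pts* was 0.159 in GFP- and 2.95 in GFP+, an 18.5-fold shift. The ratio of *Gch1* to *Spr* was 0.119 and 3.95, a 33.2-fold shift, and that of *Gch1* to *Qdpr* was 0.0753 and 0.423, a 5.62-fold shift. In GFP+ the *Gch1* level exceeded the upper bounds of *Pts* and *Spr*. By contrast *Pts* and *Spr* lay within 1.34-fold of each other in both libraries, each below the other's upper bound.

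**Figure D2:**
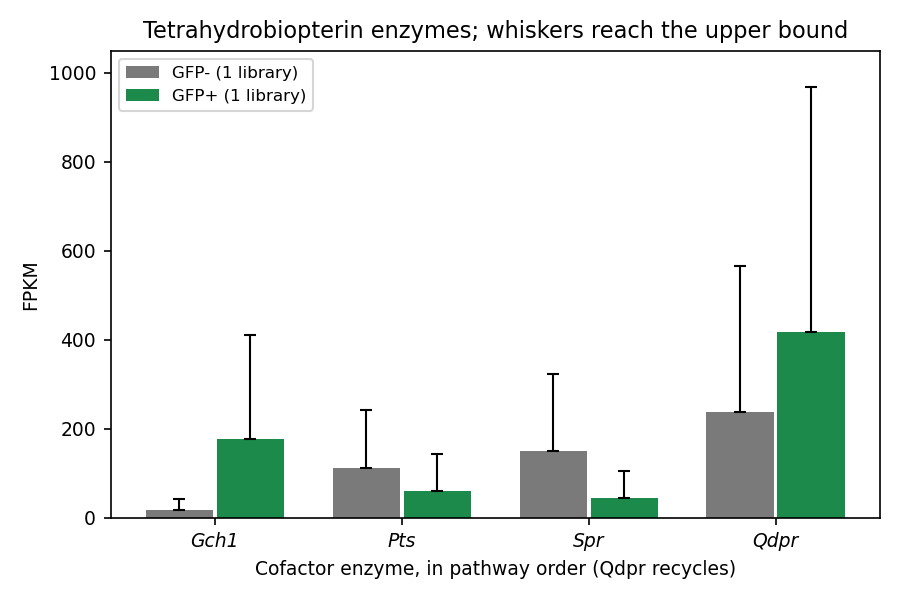
FPKM of the tetrahydrobiopterin enzymes (linear axis from 0) in the GFP- (grey) and GFP+ (green) library, 1 library each, with whiskers to the deposited upper bound. *Gch1* is the smallest bar in GFP- at 18.0 FPKM and the second largest in GFP+ at 177 FPKM, while *Pts* and *Spr* are lower in GFP+.

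Other genes of the cofactor were *Pcbd1* and *Pcbd2*, the dehydratases that act before *Qdpr* in recycling, and *Gchfr*, the feedback regulator of the *Gch1* product. None of these 3 passed the 4-fold rule and all 3 had log2 differences below 0 as deposited, from -1.49 to -0.43. *Pcbd1* was at 174 FPKM in GFP- and 129 in GFP+, and its difference turned to 0.07 with the median ratio set to 0 and to 0.19 with equal totals. *Pcbd2* was at 48.5 FPKM in GFP- and 16.7 in GFP+. *Gchfr* was at 31.0 FPKM in GFP- and 12.7 in GFP+. *Gch1* and its regulator thus lay on opposite sides of 0 in these libraries, also under both other scalings.

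Both vesicular transporters were high in the reporter cells, with *Slc18a1* the more abundant. *Slc18a1* (ENSMUSG00000036330.12, chromosome 8, 69037711 to 69089235, minus strand) was at 10.7 FPKM in GFP- with an upper bound of 43.1 FPKM, and at 462 FPKM in GFP+ with an upper bound of 1446 FPKM, with a GFP+ level 43.2 times that in GFP- (log2 difference 5.31). *Slc18a2* (ENSMUSG00000025094.8, chromosome 19, 59260896 to 59296012, plus strand) was at 0.467 FPKM in GFP- with an upper bound of 1.25 FPKM, and at 94.0 FPKM in GFP+ with an upper bound of 222 FPKM. Its ratio of 201 was the largest of the 10 genes, although its log2 difference of 6.02 was below that of *Tph1* because 1 FPKM is added on that scale. The GFP- level of *Slc18a2* rested on about 104 fragments, for which the 95% exact Poisson interval is 0.381 to 0.564 FPKM and covers counting error only.

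*Slc18a1* made up 95.8% of the summed level of the pair in GFP- and 83.1% in GFP+. The ratio of *Slc18a1* to *Slc18a2* was 22.9 in GFP- and 4.91 in GFP+. The GFP- ratio was 7.97 with 1 FPKM added to each level and 34.4 between upper bounds, so its size depends on the measure used. In each library the *Slc18a1* level exceeded the upper bound of *Slc18a2*. The upper bound of *Slc18a1* was 4.04 times its FPKM in GFP- and 3.13 times in GFP+, the widest of the 10 genes in each library. Its row shares a listed locus with *Atp6v1b2*, a subunit of the proton pump that acidifies secretory vesicles. *Atp6v1b2* (chromosome 8, 69088646 to 69113711, plus strand) starts inside *Slc18a1* and runs the opposite way, with 590 bases of gene body in common and no shared exon base in GENCODE M21. It was at 72.6 FPKM in GFP- and 502 in GFP+, a ratio of 6.92. The sources used here do not say how the fragments of the merged locus were split. An antisense transcript, Gm29261, shares 111 exon bases with *Slc18a2*, and their reads cannot be told apart without strand.

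Of the 8 other vesicular transmitter transporters on the list, only *Slc18b1* reached 1 FPKM, at 15.6 FPKM in GFP- and 17.3 in GFP+. *Slc18a3*, the acetylcholine transporter of the same family, was listed at 0 in GFP- and at 0.0293 FPKM in GFP+, and *Slc32a1* and *Slc10a4* were listed at 0 in both. The amine transporters *Slc18a1* and *Slc18a2* were thus the members of this class with high levels in GFP+.

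Genes of serotonin removal were lower in the reporter cells. *Slc6a4*, the reuptake transporter (ENSMUSG00000020838.12, chromosome 11, 76998603 to 77032340, plus strand), was at 42.2 FPKM in GFP- (upper bound 90.6) and at 9.58 FPKM in GFP+ (upper bound 21.9) (log2 difference -2.03). *Maoa* (ENSMUSG00000025037.6, chromosome X, 16619698 to 16687818, plus strand) was at 116 FPKM in GFP- (upper bound 269) and at 23.9 FPKM in GFP+ (upper bound 51.4) (log2 difference -2.23). GFP- levels were 4.41 times the GFP+ level for *Slc6a4* and 4.83 times for *Maoa*, and 1.93 and 2.25 times the GFP+ upper bound. Both lay just past the 4-fold rule, and the call rests on the library scale. With the median log2 ratio of well-expressed genes (-0.50 as deposited) set to 0, the differences were -1.57 for *Slc6a4* and -1.74 for *Maoa*, and with equal totals -1.46 and -1.63, so that 0 of the 10 genes were then 4-fold lower (1.51% and 1.09% of all symbols). The 5 higher genes passed the rule under both scalings (10.8% and 11.8% of all symbols).

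*Maoa* and *Slc6a4* kept nearly the same proportion to each other, with a *Maoa* to *Slc6a4* ratio of 2.74 in GFP- and 2.50 in GFP+. Against synthesis the proportions were turned around. The GFP- library held 2.41 *Slc6a4* and 6.60 *Maoa* per unit of *Tph1*, in FPKM, whereas the GFP+ library held 142 *Tph1* per unit of *Slc6a4* and 56.8 per unit of *Maoa*. Neither removal gene was silent in the reporter fraction: *Maoa* ranked 3893 and *Slc6a4* ranked 6882 of 23532 symbols there.

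**Figure D3:**
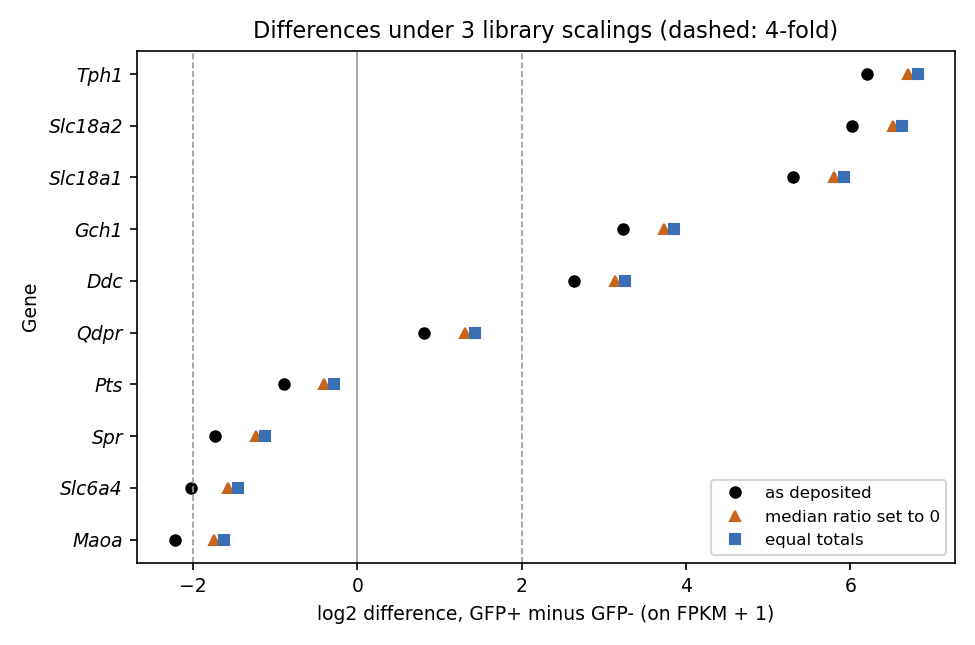
log2 difference of each gene, GFP+ minus GFP-, on FPKM + 1, as deposited (black), with the median ratio of well-expressed genes set to 0 (orange) and with equal totals (blue); dashed lines mark 4-fold. Each gene keeps its side of 0, and *Slc6a4* and *Maoa* pass the dashed line only as deposited.

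Other genes of amine uptake and breakdown were taken from 2 lists. Among the uptake transporters, *Slc22a3*, a low-affinity organic cation transporter, was 4-fold higher, at 1.94 FPKM in GFP- and 17.2 in GFP+ (log2 difference 2.63). *Slc29a4*, the plasma membrane monoamine transporter, was at 1.46 and 3.49 FPKM and did not pass the rule. The catecholamine transporters *Slc6a2* and *Slc6a3* were below 1 FPKM in both libraries. Of 9 tested genes of breakdown and conjugation, 0 were 4-fold higher and 2 were 4-fold lower, beside 7.09% and 4.59% of all symbols tested. Their median log2 difference was -1.01, beside -0.12 over all symbols. *Aldh1b1*, a mitochondrial aldehyde dehydrogenase, was at 1672 FPKM in GFP- and 251 in GFP+, and it was 4-fold lower under the other scalings too (-2.23 and -2.11). *Sult1b1*, a sulfotransferase, was at 60.8 FPKM in GFP- and 12.1 in GFP+ and was not (-1.77 and -1.65). *Akr1a1*, an aldehyde reductase, was at 1194 and 394 FPKM (log2 difference -1.60), and *Aldh9a1*, an aldehyde dehydrogenase of amine breakdown, at 228 and 65.4 FPKM (-1.79). *Maob*, the sister enzyme of *Maoa*, was at 36.8 FPKM in GFP- and 33.5 in GFP+, so that *Maob* was the higher of the oxidases in GFP+, within the upper bound of *Maoa*, and *Maoa* the higher in GFP-.

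Supply of substrate and of vitamin B6, the cofactor of *Ddc*, was also listed. Of 7 tested genes of tryptophan supply and use, 1 was 4-fold higher and 0 lower, beside 7.09% and 4.59% of all symbols tested. It was *Slc6a19*, a neutral amino acid transporter of the brush border, at 24.8 FPKM in GFP- and 123 in GFP+ (log2 difference 2.27). *Wars*, the tryptophanyl-tRNA synthetase, was at 136 and 71.2 FPKM, and *Slc3a2*, the heavy chain of amino acid exchangers, at 103 and 70.0 FPKM. The kynurenine pathway enzymes *Ido1*, *Ido2*, *Tdo2*, *Kmo* and *Kynu*, which divert tryptophan, were below 1 FPKM in both libraries, and *Afmid*, the formamidase of that pathway, was at 5.76 FPKM in GFP- and 2.43 in GFP+. *Pdxk*, the kinase that activates vitamin B6, was at 38.5 FPKM in GFP- and 140 in GFP+. Its log2 difference of 1.84 missed the rule as deposited and passed it at 2.34 and 2.46 under the other scalings. *Pdxp*, the phosphatase of the active vitamin, was at 9.85 and 4.83 FPKM and did not pass the rule under any scaling.

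Other users of the same enzymes and cofactor were also listed. *Tph2*, the hydroxylase of neurons, was at 0.00666 FPKM in GFP- and listed at 0 in GFP+. *Th*, which makes catecholamines with the same cofactor and *Ddc*, was at 1.15 FPKM in GFP- and 1.75 in GFP+, and *Dbh* and *Pnmt*, which act after it, were listed at 0 in both. *Aanat*, which turns serotonin toward melatonin, was listed at 0 in both, and *Asmt*, which follows it, at 0.0170 FPKM in GFP- and 0 in GFP+. *Agmo*, another enzyme that uses tetrahydrobiopterin, was at 23.3 FPKM in GFP-, above *Tph1* there, and at 9.01 FPKM in GFP+, and *Nos2* at 0.781 and 1.06 FPKM. *Hdc*, the histamine enzyme, was at 2.66 and 4.84 FPKM. The glutamate decarboxylases *Gad1* and *Gad2*, which make GABA, reached 3.14 and 2.11 FPKM in GFP+, against 0.0424 and 0.0586 in GFP-. They passed the filter only through GFP+, with log2 differences of 1.99 and 1.56 as deposited, 2.39 and 1.91 with the median ratio set to 0, and 2.48 and 2.01 with equal totals. Over the 8 lists, 33 of 58 listed genes were tested, with a median log2 difference of -0.60. Of the 33, 2 were 4-fold higher and 2 were 4-fold lower, close to the 7.09% and 4.59% of all symbols tested.

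Ranks within each library do not depend on the scaling between libraries. *Tph1* ranked 5142 of 23532 symbols in GFP- and 11 in GFP+, where it held 0.334% of the summed FPKM. *Slc18a1* ranked 6404 and 76, and *Slc18a2* ranked 11503 and 884. *Ddc* ranked 2090 in GFP- and 91 in GFP+, and *Gch1* ranked 5071 and 345. These 5 genes thus lay between the top 8.88% and 48.9% of symbols in GFP- and within the top 3.76% in GFP+. *Qdpr* was high in both, at ranks 448 and 86. *Pts* ranked 1176 in GFP- and 1515 in GFP+, *Spr* ranked 831 and 2087, *Maoa* ranked 1139 and 3893, and *Slc6a4* ranked 2936 and 6882. Among the 1000 most abundant symbols were 2 of the 10 genes in GFP- (*Qdpr*, *Spr*) and 6 in GFP+. All 10 together held 0.123% of the summed FPKM in GFP- and 0.749% in GFP+, where the 5 rows without an estimate are left out.

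**Figure D4:**
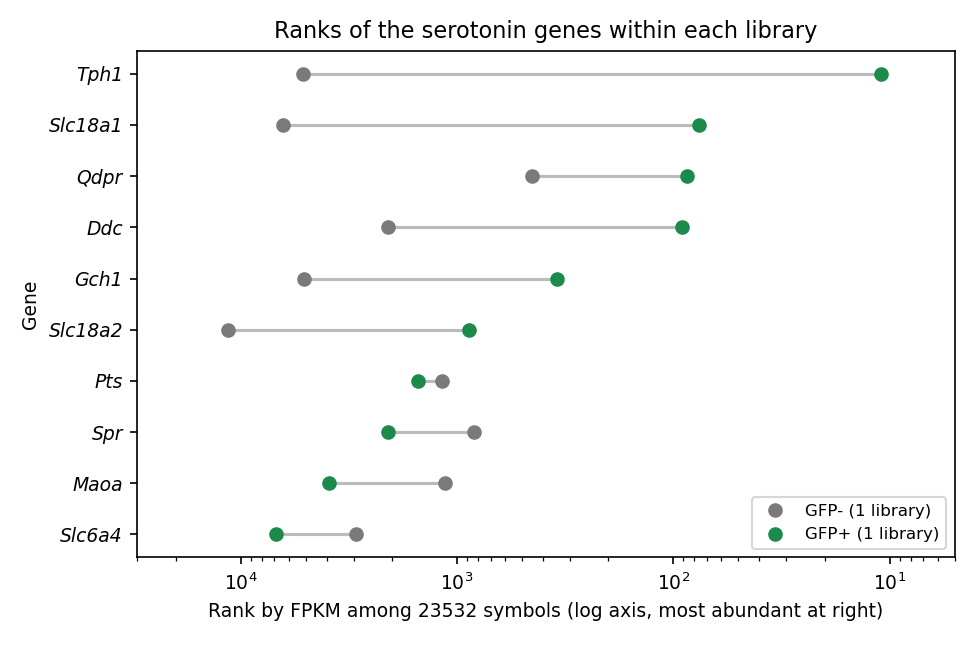
Rank by FPKM of each gene among 23532 symbols in the GFP- (grey) and GFP+ (green) library, on a log axis with the most abundant at right, 1 library each. *Tph1* is at rank 5142 in GFP- and 11 in GFP+, and *Pts*, *Spr*, *Maoa* and *Slc6a4* have lower places in GFP+.

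The order of the 10 genes by level was *Qdpr*, *Spr*, *Maoa*, *Pts*, *Ddc*, *Slc6a4*, *Gch1*, *Tph1*, *Slc18a1* and *Slc18a2* in GFP-. There the neighbours in the order lay within each other's upper bounds except at the last step, from *Slc18a1* to *Slc18a2*. *Tph1* and *Gch1*, the enzymes that set the rate of serotonin and of cofactor synthesis, were nearly level there, at a *Gch1* to *Tph1* ratio of 1.03. In GFP+ the order was *Tph1*, *Slc18a1*, *Qdpr*, *Ddc*, *Gch1*, *Slc18a2*, *Pts*, *Spr*, *Maoa* and *Slc6a4*, and the step from *Maoa* to *Slc6a4* was the only one past an upper bound. *Slc18a1*, *Qdpr* and *Ddc* lay within 1.15-fold of one another in GFP+. The hydroxylase was 2.94 times its nearest neighbour, *Slc18a1*, in FPKM, and below that gene's upper bound.

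The GFP- library still held part of each transcript that was high in GFP+. Its level was 0.496% of the GFP+ level for *Slc18a2*, 1.29% for *Tph1* and 2.32% for *Slc18a1*. These lay in the range of the enterochromaffin markers, from 0.408% for *Trpa1* to 3.52% for *Tac1*. The markers and the 10 genes were chosen with earlier results of these data known, so the range is not an independent yardstick. For *Gch1* and *Ddc* the share was 10.2% and 15.9%, above those 4 markers. Of the 7 general enteroendocrine markers, 6 lay between 1.22% (*Pcsk1*) and 3.03% (*Syp*), and *Scg2*, a granin, was at 21.7%. Hormones of other endocrine cells were present in GFP-, with *Gip* at 275 FPKM, *Gcg* at 120 FPKM and *Cck* at 109 FPKM. Of the 8 on the list, 4 (*Gcg*, *Sst*, *Ghrl*, *Nts*) were 4-fold lower in GFP+ and 1 (*Gast*) was 4-fold higher, beside 4.59% and 7.09% of all symbols tested. *Gast* was at 0.639 FPKM in GFP- and 13.0 in GFP+. *Gip* and *Cck* did not pass the rule and were at 141 and 37.2 FPKM in GFP+. The part of such cells in the GFP- levels of *Ddc* and *Gch1* was not tested.

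**Figure D5:**
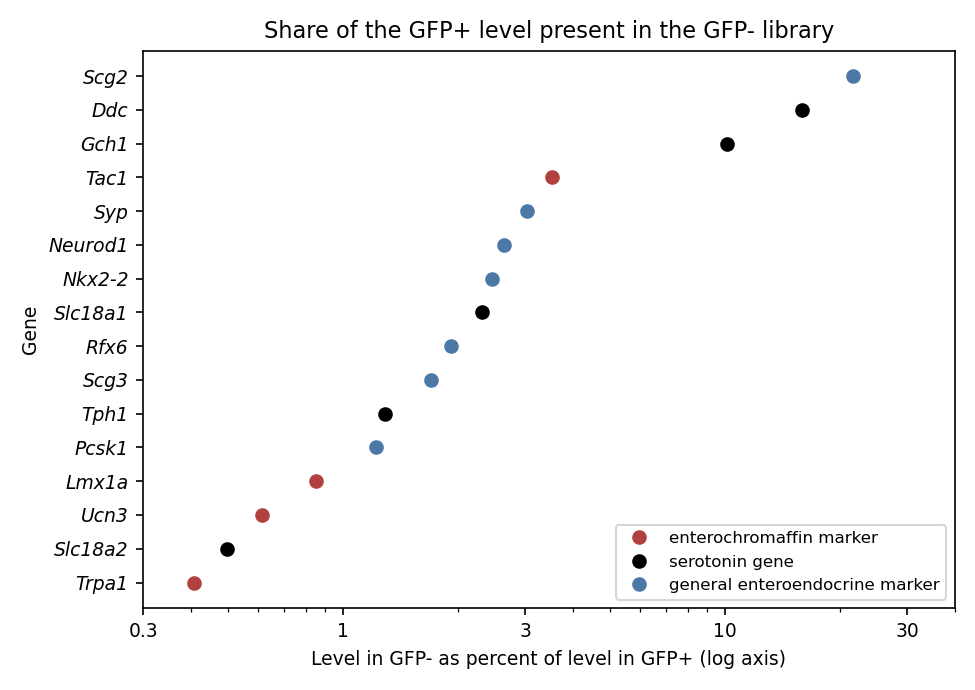
Level in the GFP- library as a percent of the level in the GFP+ library (log axis) for the 5 serotonin genes that were higher in GFP+ (black), 4 enterochromaffin markers (red) and 7 general enteroendocrine markers (blue), 1 library per fraction. *Slc18a2*, *Tph1* and *Slc18a1* lie among the markers, and *Gch1* and *Ddc* lie above all but *Scg2*.

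Other cell types known to hold or handle serotonin were checked by their markers. Mast cells make serotonin in rodents. Of 10 mast cell markers, 9 were below 1 FPKM in both libraries, among them *Mcpt1*, *Mcpt4*, *Ms4a2* and *Fcer1a*, which were listed at 0 in both, and the exception, *Kit*, was at 7.80 FPKM in GFP- and 11.3 in GFP+. All 4 platelet markers were below 1 FPKM in both libraries. Of 7 markers of enteric neurons, 5 were below 1 FPKM in both. The other two were *Ret*, which was 4-fold higher at 0.268 FPKM in GFP- and 6.75 in GFP+, and *Tubb3*, which did not pass the rule at 1.51 and 4.58 FPKM. Histamine-storing cells of the stomach also load amines through *Slc18a2*. Of the 3 genes listed with them, *Cckbr* was listed at 0 in both and *Hdc* was at the levels given above. The remaining gene, *Gast*, was 4-fold higher in GFP+. It is the hormone gene counted above for other endocrine cells and is not read as a marker of the histamine-storing cells. The part of any of these cells in the *Tph1* and *Slc18a2* levels was not tested. Of 5 tested leukocyte and stroma markers, 2 were 4-fold higher in GFP+ and 0 lower, beside 7.09% and 4.59% of all symbols tested. The higher ones were *Vim*, at 4.90 FPKM in GFP- and 237 in GFP+, and *Pecam1*, an endothelial marker, at 0.187 and 10.4 FPKM. *Cd68* (0.595 and 2.71 FPKM), *Col1a1* (0.0106 and 1.56) and *Col3a1* (0.00593 and 1.61) also lay higher in GFP+ but did not pass the rule. *Ptprc*, which marks leukocytes, was at 0.0224 FPKM in each. The source of these transcripts was not tested.

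Markers of absorptive and crypt cells were read beside *Slc6a4* and *Maoa*. Of all symbols tested, 4.59% were 4-fold lower in GFP+ as deposited, 1.51% with the median ratio set to 0 and 1.09% with equal totals. Of 9 enterocyte markers, 2 were 4-fold lower in GFP+ and none was 4-fold higher. Their median log2 difference was -0.04, with summed levels of 3689 FPKM in GFP- and 1668 in GFP+. Most of the GFP- sum was *Fabp1*, at 2157 FPKM in GFP- and 470 in GFP+. *Lct* (log2 difference 1.22), *Sis* (1.09), *Slc15a1* (0.75) and *Apoa4* (0.11) lay higher in GFP+, and the other enterocyte markers lay lower. All 6 Paneth cell markers were 4-fold lower, with sums of 10716 and 667 FPKM, as were 2 of 4 stem cell markers, with sums of 1366 and 342 FPKM, 2 of 5 tested goblet cell markers, with sums of 3079 and 1290 FPKM, and 1 of 5 tested tuft cell markers. No marker of these 5 lists was 4-fold higher as deposited or under the other scalings, which left 0 enterocyte, 5 Paneth, 1 stem, 2 goblet and 0 tuft cell markers as 4-fold lower. The part of these cell types in the lower *Slc6a4* and *Maoa* levels was not tested.

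Genes most like each of the 10 in level were found by the distance of log2(FPKM + 1) over the 2 libraries. The gene nearest to *Tph1* was *Pcsk1*, a prohormone convertase, at 11.3 FPKM in GFP- and 930 in GFP+ (distance 0.80), followed by *Cpe* and *Resp18* at distances of 1.06 and 1.14. No other symbol lay as close to *Tph1* as 0.80, whereas *Maoa*, *Spr* and *Pts* each had a neighbour within 0.02. Nearest to *Slc18a1* were *Rasd1*, *Aplp1* and the unnamed transcript 2810025M15Rik, at distances of 0.52 to 0.67. Nearest to *Slc18a2* was *Alb*, the albumin gene, at 0.478 FPKM in GFP- and 88.4 in GFP+ (distance 0.09). Second nearest to *Ddc* was *Atp6v1b2*, the proton pump gene next to *Slc18a1*, at a distance of 0.37. *Slc6a4* lay next to *Mrpl47* and *Mrpl15*, 2 mitochondrial ribosomal protein genes, at distances of 0.04 and 0.07. With 2 libraries, likeness describes a pair of levels only.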

How the data were processed

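The deposited tables give FPKM values with confidence bounds for each gene and library, per the file headers. Per the submitters' processing notes, TopHat2 (listed version 0.7), Cufflinks and Cuffdiff were used on mm10; the sources used here do not give annotation, strand setting or library scaling. FPKM was summed per symbol, leaving out 5 rows without an estimate in GFP+. Differences are log2 with a pseudocount of 1 FPKM, for symbols that reach 1 FPKM in either library; with 1 library per fraction a 4-fold size rule stood in for a test. Alternatives were pseudocounts of 0.1 and 5, filters of 0 and 5 FPKM, a median ratio of 0 over 5563 symbols of at least 10 FPKM in both, and equal totals. The comparison with upper bounds was added after the data were seen.

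Fragments were estimated from low-value steps of single-transcript genes over 3000 bases (GENCODE M21 lengths): 59.0 per FPKM and kilobase in GFP- and 59.8 in GFP+. As a check not used to choose the step, the upper bound was 3.83 times the FPKM (within 0.01) for 35 of 38 step genes in GFP- and 17 of 18 in GFP+, against 9 of 543 and 10 of 631 genes above it. A shared ratio does not by itself show that a step is 1 fragment. Among genes below 4.5 steps, 75.2% of 109 in GFP- and 59.0% of 83 in GFP+ lay within 0.1 of a whole number of steps. The fragment numbers are therefore approximate. Fragment numbers use the longest coding transcript, and amplified fragments are not independent molecules. Locus starts were shifted to count from 1. Named genes are all 10 members, list genes past the rule, up to 3 of each list with the highest FPKM, and the 3 nearest genes of a member. Others named beside them (list genes near 0, *Maob*) were chosen after their values were seen. The 10 genes and the lists were chosen with earlier results of these data known. *Ugt1a6a* and *Ugt1a6b* were not analysed here, and some list genes are not reported here. Python 3.11.15, pandas 2.3.3, numpy 2.4.6, scipy 1.17.1 and matplotlib 3.10.9 were used.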

Additional observations from a re-analysis of the deposited data

How the results depend on the processing

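The 5 genes that were 4-fold higher in GFP+ were the same 5 under both other pseudocounts, both other filters, both other scalings and the comparison with upper bounds. The number of genes 4-fold lower was 2 as deposited, 1 with a pseudocount of 5 (*Maoa*, with *Slc6a4* at -1.70), 0 when the median ratio was set to 0 and 0 with equal totals; these scalings moved the median difference of all symbols from -0.12 to 0.35 and 0.46. Of 40 recomputed log2 differences, 35 kept their side of the rule, 5 no longer passed it (*Slc6a4* 3 times, *Maoa* 2 times) and 0 changed sign. With upper bounds in place of FPKM, the *Slc18a1* to *Slc18a2* ratio was 34.4 in GFP- and 6.51 in GFP+, and with 1 FPKM added it was 7.97 in GFP-, where *Slc18a2* is near that amount. In GFP- the ratio of *Gch1* was 0.176 and 0.167 to *Pts* and 0.131 and 0.125 to *Spr* under the same changes, and 0.0791 to *Qdpr* with 1 FPKM added. Ranks shifted by -1 to 12 places among table rows and by -1316 to 367 places by upper bound. No paired analysis was possible because each fraction has 1 library. With 1 library per fraction, no spread between replicates could be measured.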
